A study of Mus musculus with 18 samples.

Results

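The cytosolic ribosomal protein genes were described across the 6 groups of a mouse skeletal muscle RNA-seq series. Genes were taken by name: every symbol that starts with Rpl or Rps and a digit, with Rplp0, Rplp1, Rplp2 and Rpsa, leaving out the S6 kinases (Rps6k) and symbols marked as pseudogenes with "-ps". The rule took 64 of the 12558 genes in the deposited table, 37 of the large (60S) and 26 of the small (40S) ribosomal subunit, and Rps19bp1. Rps19bp1 encodes a protein that binds Rps19 and the deacetylase SIRT1 and is not itself a ribosomal protein. Rps4l is annotated as a transcribed processed pseudogene. For 63 of the 64 genes the level was high enough to be tested, and Rpl34 was described only. The series, by its title, concerns activation of NURR1, an orphan nuclear receptor encoded by Nr4a2, in muscle. Wild-type mice received normal chow (WT-NC) or a high-fat diet (WT-HFD) for 10 weeks, and 2 further wild-type groups on these diets drank water with a drug that the labels call AQ and do not spell out (WT-NC-AQ and WT-HFD-AQ). Nurr1 transgenic mice on the high-fat diet (HFD-Nurr1-mTg) had their own wild-type controls on that diet (HFD-WT). Each group held 3 libraries, which the labels number as biological replicates. Which muscle was taken, what drives the transgene, and the age and sex of the mice are not stated.

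The cytosolic ribosome reads mRNA and joins amino acids, and nearly all of its proteins are encoded by single intron-bearing genes in the nucleus. These genes have left many processed pseudogenes, intronless copies of their mRNAs, in mammalian genomes. Their mRNAs typically begin with a run of pyrimidines, the terminal oligopyrimidine motif, through which mTORC1 signalling controls their translation. Some members have paralogues with restricted expression, and Rpl3l replaces Rpl3 in ribosomes of adult striated muscle.

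The sequences below show how closely some members resemble other loci, which bears on every level that follows because the libraries were read in single reads of 50 bases. The first is a coding window of Rps2, a protein at the mRNA entry side of the 40S subunit, at chr17:24720276-24720325 on the plus strand (GRCm38). Among the annotated pseudogenes searched it was found unchanged in 6, among them Gm6311 at chr13:75954136-75954185 (plus strand), and with 1 or 2 mismatches in 9 more, among them Gm11249 at chr4:67930881-67930930 (plus strand). Capitals mark bases that differ from Rps2.

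Rps2: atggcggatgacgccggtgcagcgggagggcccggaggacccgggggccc

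Gm6311: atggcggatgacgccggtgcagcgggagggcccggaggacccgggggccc

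Gm11249: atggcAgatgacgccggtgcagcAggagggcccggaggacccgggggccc

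The Rpl3 and Rpl3l pair shows the opposite case, a paralogue that single reads can separate. Their most similar coding windows within 1 exon lay at chr15:80082421-80082470 (minus strand) and chr17:24728429-24728478 (plus strand) and differed at 5 of 50 bases, shown in capitals in both.

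Rpl3: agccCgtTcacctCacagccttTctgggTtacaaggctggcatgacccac

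Rpl3l: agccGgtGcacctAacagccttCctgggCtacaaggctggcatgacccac

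Windows of 50 bases of a reference transcript per gene were compared with the transcripts of all other annotated genes and pseudogenes, allowing 2 mismatches. A median of 36.5% of a member's windows matched no other gene, against 100% over 12425 other genes of the table. Under 50% were unique in 48 of the 64 members, while 5.38% of the other genes lay that low. Rpl36 and Rps18 had the smallest unique shares, 1.497% and 1.96%. At 90% or more lay 5 members, among them Rpl3l and Rps19bp1 (both 100%), Rps15a (91.3%) and Rpl8 (91.3%). In 62 members a window was shared with an annotated pseudogene, with a median of 15 pseudogenes and up to 169 for Rpl7a. How the authors' counting treated reads with several matches is not stated. A further 23 protein-coding genes that the naming rule fits, such as Rpl11, Rpl19, Rps27 and Rps29, were not analysed here because the table used has no row for them. Their median unique share was 19.7%.

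Transcription start windows are shown because a pyrimidine run at the start is a feature that the naming rule did not use. RefSeq promoters (GRCm38.p6) were found for 48 of the 64 members, and not for Rpl3, Rpl8 and Rplp1 among others. Each window holds the 20 bases before the annotated start and the first 10 transcribed bases. Capitals mark a run of at least 8 C or T that begins with C and reaches within 10 bases of the start, as far as it lies in the window.

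Rpl27a (chr7:109519175-109519204, plus strand): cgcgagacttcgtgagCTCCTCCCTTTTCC

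Rpl7a (chr2:26910787-26910816, plus strand): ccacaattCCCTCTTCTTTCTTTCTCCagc

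Rpl4 (chr9:64173367-64173396, plus strand): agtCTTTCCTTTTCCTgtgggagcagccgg

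Rps18 (chr17:33955656-33955685, minus strand): acttatacgtcacttccgCTCTCTCTTCCa

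Rps6 (chr4:86857358-86857387, minus strand): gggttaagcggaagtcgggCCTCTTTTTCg

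Rps7 (chr12:28635944-28635973, minus strand): gaagagcttccggtttccacccacctactt

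Rpl3l (chr17:24727806-24727835, plus strand): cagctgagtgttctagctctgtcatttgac

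Such a run was present in 22 of the 48 members (45.8%) and in 11.5% of all 9464 promoters of the table's genes, searched on the transcribed strand only. Rpl27a carried the longest, of 20 bases. Rpl3l, the muscle paralogue, and Rps7 carried none in this window. The start used was the RefSeq start nearest that of the reference transcript, however far apart they lay. For Rps7 the reference transcript starts at chr12:28635857, outside the window shown. Members counted without a run were not searched at other starts. The 22 members with a run and the 26 without had medians of 16.3 and 12.03 scaled CPM per kb, and in the 7 comparisons below their median log2 fold changes lay between -0.10 and 0.07. Scaled CPM are the deposited values, read counts scaled to a common library size that the authors adjusted between libraries.

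The members held 0.313% to 0.372% of each library's reads, and the 5 most read members accounted for 51.5% of those. Per kb of transcript, Rplp1 (412 scaled CPM), Rpl3l (407), Rpl4 (296) and Rpl8 (285) were among the highest. Rplp1 is a protein of the stalk that recruits elongation factors, and Rpl4 lines the exit tunnel of the nascent chain. Rpsa, which is also a laminin receptor, was lowest at 0.743 scaled CPM per kb, followed by Rpl12 (0.853), Rps27a (1.40), Rpl10a (1.44) and Rpl21 (1.54). Rps27a is made as a fusion with ubiquitin. Of the 64 members, 27 averaged under 10 scaled CPM, 18 under 5 and 9 over 100. Among these 9 members, Rpl3l and Rpl8 had over 90% unique windows, Rps3 had 83.4%, and Rpl4 (36.4%) and Rplp1 (5.56%) had under 50%. Across the 64 genes the level per kb and the unique share had a Spearman's rho of 0.10, given as a description, since members share libraries and depth. The 5 members with 90% or more unique windows had a median of 285 scaled CPM per kb, with 5.21 the lowest. Medians were 15.6 for the 48 members under 50% and 10.7 for the 11 between.

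**Figure D1:**
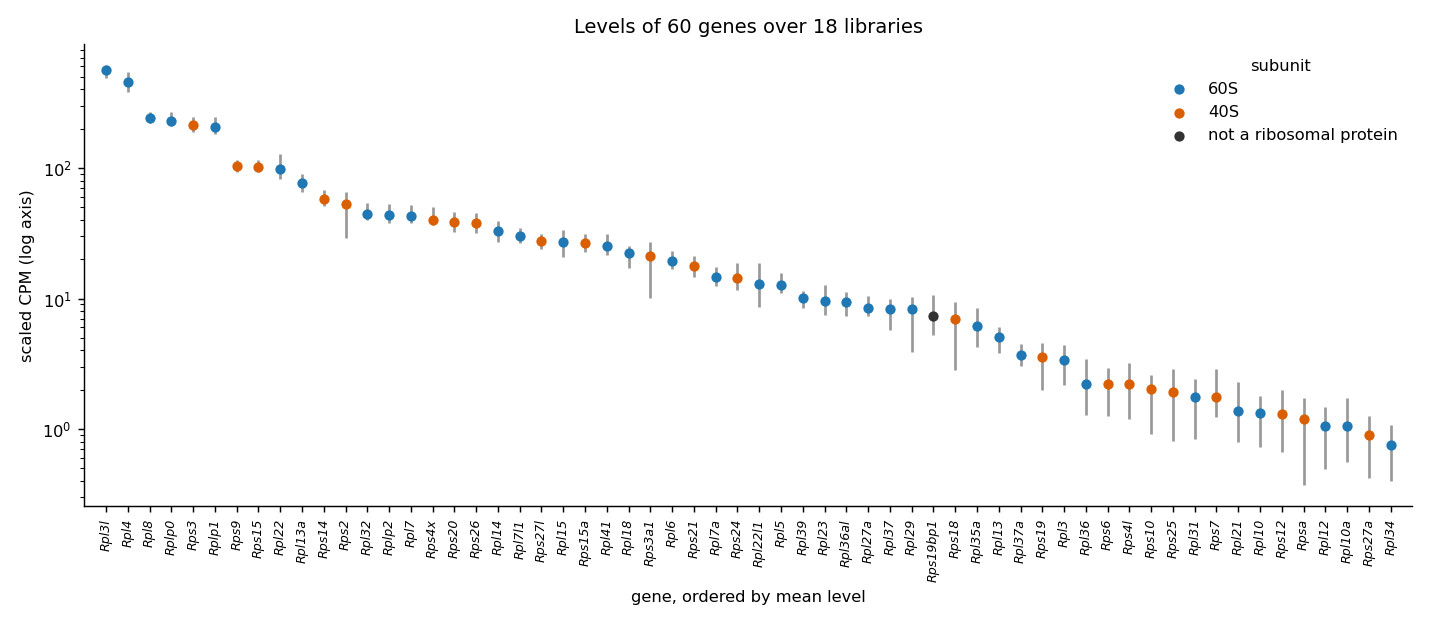
Scaled CPM (log axis) of 60 of the genes, ordered by mean level, with a point for the mean of 18 libraries and a line from the lowest to the highest library, coloured by subunit. Rpl3l averaged 559 and Rpl34 averaged 0.749, and Rps2, Rps3a1 and Rps18 have long lines toward low values.

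**Figure D2:**
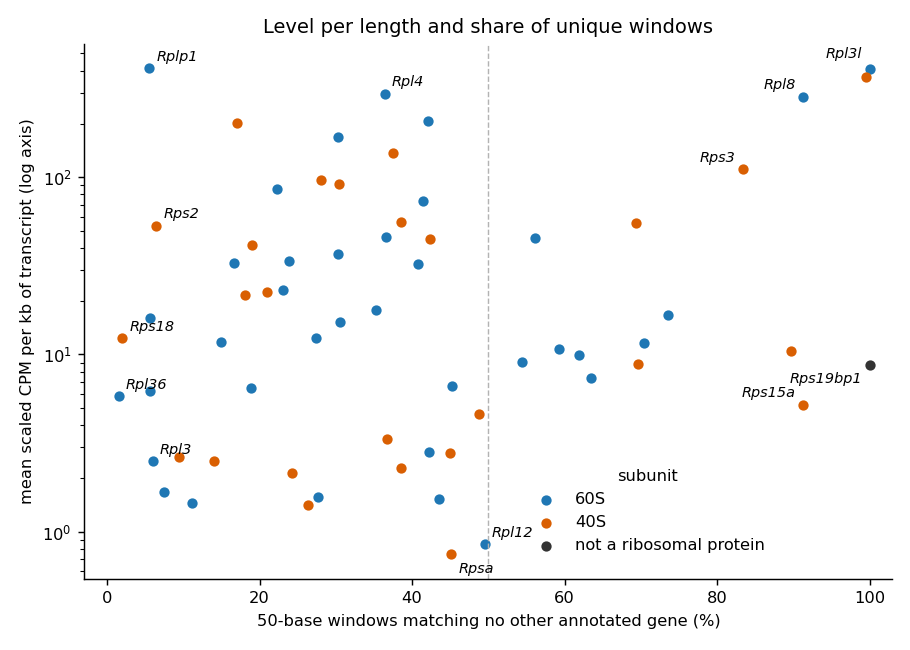
Mean scaled CPM per kb of transcript (log axis) against the percent of 50-base windows that match no other annotated gene, with a point per gene coloured by subunit and a dashed line at 50%. Rplp1 and Rpl3 both lie below 10% unique, at 412 and 2.50 scaled CPM per kb.

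Rpl3l was read at 559 scaled CPM, rank 186 of all genes in the table, and lay between 487 and 615 in every library. Rpl3, its widely expressed paralogue, lay between 2.17 and 4.41, from 27 to 63 reads. Per kb this was 407 against 2.50. Only 78 of the windows of Rpl3 were unique, and divided by unique windows alone its level was 43.4 per kb against 422 for Rpl3l. The order of the pair held under both measures, but its size did not. Among the other pairs, per kb, Rpl22 lay at 208 and Rpl22l1 at 23.2, Rpl7 at 36.7 and Rpl7l1 at 11.6, and Rps4x at 41.3 and its copy Rps4l at 2.79. Rps27l lay at 54.8, Rpl36al at 17.9 and Rpl39 at 16.6, while Rps27, Rpl36a and Rpl39l were not analysed here. No comparison called a member of these pairs.

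The libraries held 10404895 to 16082994 reads, and 3 reads in a library stood for 0.191 to 0.277 scaled CPM, counting error only. Nr4a2 was at 18.8, 30.1 and 19.8 in the transgenic libraries and at most 4.79 in the others. All 12 skeletal muscle fibre markers were expressed, with sums of 157126 to 222403, as the tissue label says. In bulk RNA, fewer cells of a type and less RNA per cell cannot be told apart. Members varied about as little as other genes: among genes averaging at least 10 scaled CPM, the median SD within groups on the log2 scale was 0.113 for 37 members and 0.121 for 7768 others. Rps3a1 (SD of 0.35 over all libraries), Rps2 (0.32) and Rpl22l1 (0.30) varied most among those 37. In each library the members' median deviation from their means over all libraries lay between -0.14 (HFD-Nurr1-mTg replicate 1) and 0.14. WT-NC replicate 1 lay at -0.05 while replicates 2 and 3 lay at 0.14 and 0.11, and the WT-HFD libraries lay at 0.14, 0.08 and -0.03. The 3 WT-NC-AQ libraries lay at -0.02, 0.01 and -0.01.

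**Figure D3:**
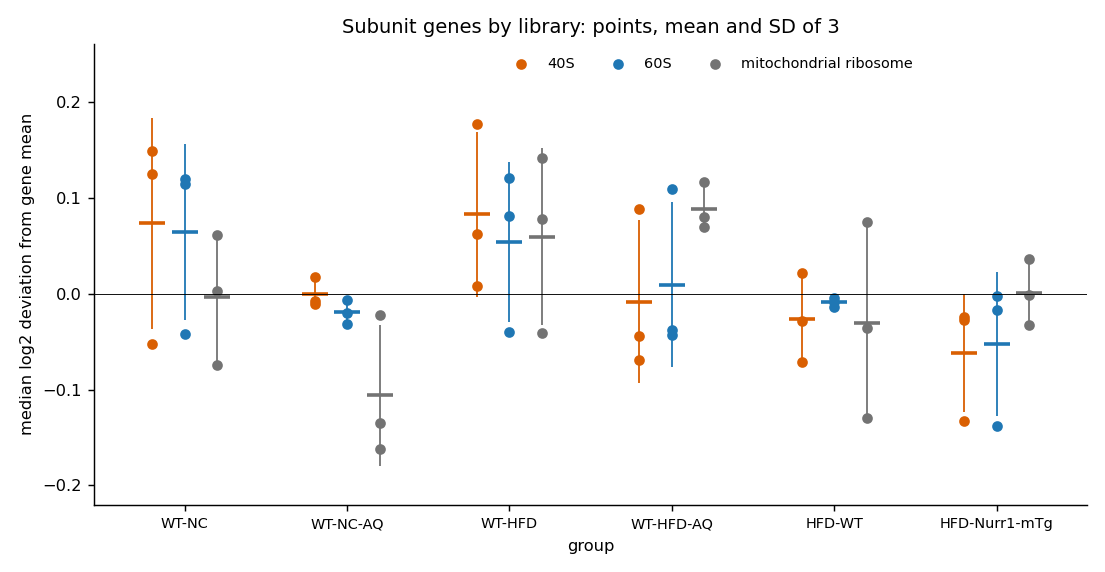
Median log2 deviation of the 40S, 60S and mitochondrial ribosomal protein genes from each gene's mean over 18 libraries in each group. Points are libraries and the bars show their mean and SD. In WT-NC replicate 2 the 40S and 60S medians lie at 0.15 and 0.12, and in HFD-Nurr1-mTg replicate 1 at -0.13 and -0.14.

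Changes were tested with limma on log2(scaled CPM + 1) over 12524 genes, and called at a Benjamini-Hochberg adjusted p under 0.05. Levels with ± are the mean and SD of 3 libraries. Each fold change is a difference on that log2 scale with its standard error (SE), which understates the change of low genes. The median over all genes lay between -0.00676 and 0.00738 in every comparison. Comparisons that share a group are not independent. WT-NC, WT-HFD and both AQ groups each enter several of them, and HFD-WT enters the last pair.

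After 10 weeks of high-fat diet no member was called. None of 63 passed limma's threshold (background 0.0479% of all genes), and none had an unadjusted p under 0.05 against 9.53% of all genes. edgeR and DESeq2 on the recovered reads also called 0. The members' median log2 fold change was -0.01 with 34 of 63 below 0, against 50.8% of all genes. For 57 members the 95% interval lay within 1.5-fold either way, as for 83.3% of all genes. Rpl39, a 60S protein, was at 11.3 ± 0.20 on the diet and 10.2 ± 0.61 on chow (0.14 ± 0.10 SE, limma adjusted p = 0.691). Rpl18, also 60S, was at 20.3 ± 1.8 against 23.6 ± 0.56 (-0.21 ± 0.11 SE, limma adjusted p = 0.560). The groups did not overlap for either gene, as for 6.32% of all genes higher and 6.1% lower. Rpl3l was at 578 ± 64 on the diet and 563 ± 29 on chow.

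With AQ on the high-fat diet no member was called either, with 0 of 63 past limma's threshold (0.0479% of all genes). At an unadjusted p under 0.05 there were 2, Rpl22l1 and Rps27a, both lower, against 11.8% of all genes, and edgeR and DESeq2 called 0. Below 0 lay 45 of 63 members, against 49.5% of all genes, with a median of -0.05. Within 1.5-fold lay 56 intervals (81.9% of all genes). Rpl22l1, the paralogue of Rpl22, was at 9.43, 9.52 and 12.5 with AQ and at 18.8, 16.1 and 10.49 without. The groups overlapped through WT-HFD replicate 3, and the difference missed the threshold (-0.47 ± 0.19 SE, limma adjusted p = 0.339). Of the fibroblast and matrix markers, 11 of 14 were lower at an unadjusted p under 0.05, with sums of 2895 to 3420 with AQ against 3620 to 5515 without. Adipocyte markers summed to 2125 to 2579 with AQ and 2789 to 3877 without. Most of these sums was Car3, at 1833 to 5441 over all libraries, against 6.05 to 59.6 for Adipoq. The median log2 deviation of the adipocyte markers lay between -0.78 and 0.08 with AQ and between 0.22 and 0.33 without. The part of either marker list in the members' values was not tested.

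AQ on chow lowered 1 of 63 members, Rps7, a 40S protein encoded at chr12:28630854-28635953 (GRCm38). Of all genes 1.11% were called, and 0.271% were called lower. Rps7 was at 1.34, 1.32 and 1.24 with AQ and at 2.22, 2.02 and 2.89 without. The groups did not overlap, and the means were 1.30 ± 0.051 and 2.38 ± 0.46 (-0.54 ± 0.13 SE, limma adjusted p = 0.0464). These values rest on 17 to 45 reads per library, and 24.3% of the gene's windows were unique. edgeR gave an adjusted p of 0.0465, DESeq2 gave none for this gene, and over the alternatives limma's lay between 0.0440 and 0.179. Leaving out any of 16 of the 18 libraries ended the call, WT-NC replicate 3 among them (0.122).

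The other members lay mostly slightly below their chow values. The median log2 fold change was -0.09 with 48 of 63 below 0, against 51.7% of all genes, and 55 intervals lay within 1.5-fold (81.4%). The libraries overlapped in this: the members' median deviation was -0.05 in WT-NC replicate 1, below the WT-NC-AQ libraries at -0.02, 0.01 and -0.01. At an unadjusted p under 0.05 there were 4, all lower, against 15.5% of all genes. Without overlap between groups, 6 members were lower (8.97% of all genes) and 0 were higher (10.9%). Rpl22l1 was at 10.3, 8.65 and 11.4 against 11.2, 16.8 and 13.5 (-0.41 ± 0.19 SE, limma adjusted p = 0.312). The groups overlapped at 11.2 and 11.4, so the lower AQ values of Rpl22l1 on both diets were not separated from the controls. Rps15a was at 25.6 ± 1.5 against 29.8 ± 0.92 (limma adjusted p = 0.330), and Rpl14 at 34.4 ± 1.6 against 32.9 ± 1.4. Of the leukocyte markers, 11 of 16 were higher at an unadjusted p under 0.05 and 2 were called, with sums of 247 to 359 with AQ against 191 to 197 without. Their part was not tested.

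A difference in the effect of AQ between diets was called for 0 of 63 members (0.711% of all genes). The smallest adjusted p was 0.312, for Rps7 (0.41 ± 0.18 SE), the member called on chow, so its effects on the 2 diets were not shown to differ. edgeR and DESeq2 called 0, and 1 member had an unadjusted p under 0.05, against 14.1% of all genes. Below 0 lay 26 of 63, against 48.7%. Intervals were wide here, and 37 of 63 lay within 1.5-fold (56.4% of all genes). Among members of at least 10 scaled CPM, Rpl22 had the largest difference upward (0.21 ± 0.11 SE, limma adjusted p = 0.404), and Rpl13a was at -0.15 ± 0.14 SE (limma adjusted p = 0.681).

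The high-fat diet under AQ was the comparison with most calls in the series, 10.6% of all genes, yet 0 of 63 members passed in limma, edgeR or DESeq2. At an unadjusted p under 0.05 there were 3, against 25.4% of all genes. Below 0 lay 30 of 63 (50.4% of all genes), and 56 intervals lay within 1.5-fold (75.6%). Rplp0, the stalk's base, was at 223, 268 and 246 with both treatments and at 217, 222 and 215 on chow with AQ (0.17 ± 0.072 SE, limma adjusted p = 0.152). Rplp1 was at 219 ± 6.0 against 196 ± 8.5 (0.16 ± 0.081 SE, limma adjusted p = 0.230). The groups did not overlap for either gene, as for 15.8% of all genes in that direction. When plain CPM replaced the deposited scaling, Rplp0, Rplp1 and Rpl36al were called higher. Rpl14 was at 29.8 ± 2.5 against 34.4 ± 1.6 (-0.20 ± 0.079 SE, limma adjusted p = 0.114). Of 76 mitochondrial ribosomal proteins 12 rose in this comparison, led by Mrpl46 (17.2 ± 1.0 to 26.1 ± 2.2, limma adjusted p = 0.00149), and of 72 nuclear-encoded respiratory chain and ATP synthase genes 36 rose, Ndufs1 from 484 ± 48 to 711 ± 28 among them. Neither list had a lower call. Leukocyte markers summed to 194 to 209 with both treatments and 247 to 359 on chow with AQ, and fibroblast and matrix markers to 2895 to 3420 and 3631 to 4459, and their part in these values was not tested.

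**Figure D4:**
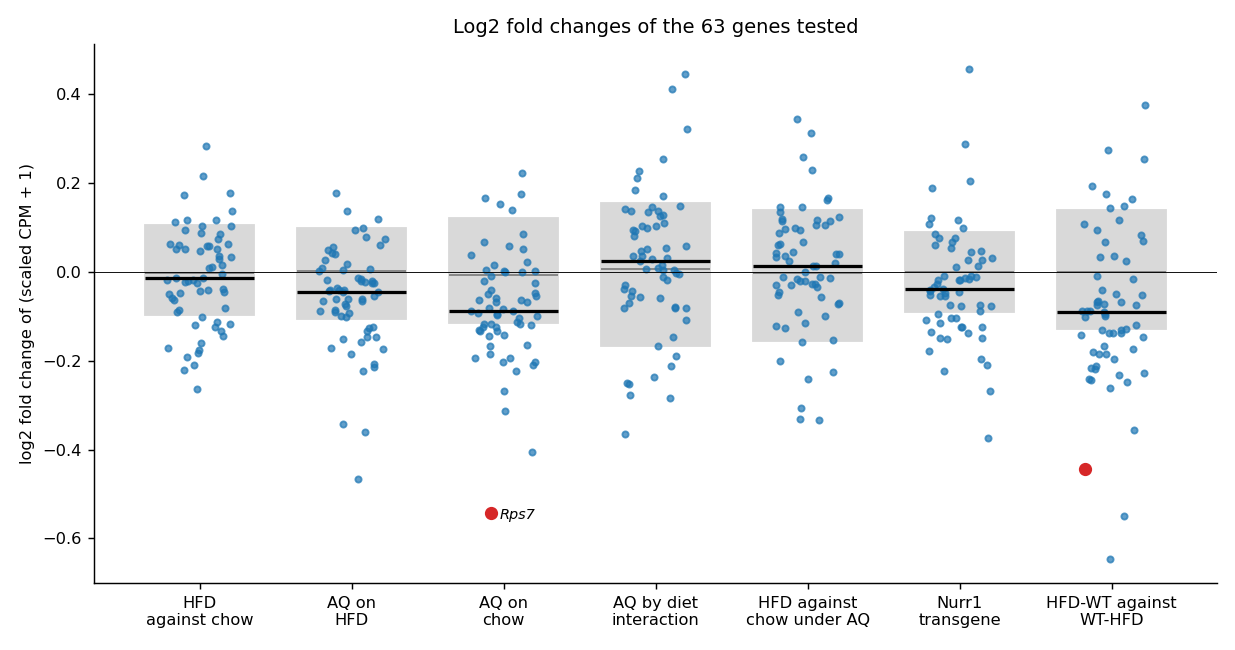
Log2 fold change of (scaled CPM + 1) for 63 members in 7 comparisons, with a point per gene, red for the called genes, a black line for the members' median, and a grey box with a grey line for the quartiles and median of all 12524 genes. The called member of AQ on chow is Rps7, and the medians of AQ on chow and of HFD-WT against WT-HFD lie at -0.09.

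The Nurr1 transgene gave no call, with 0 of 63 members called by limma (0.599% of all genes), edgeR and DESeq2 and 2 at an unadjusted p under 0.05 (8.95%). The median was -0.04 with 42 of 63 below 0, against 50.3% of all genes, and 54 intervals lay within 1.5-fold (84.1%). Rpl3l was at 560 ± 23 with the transgene and 551 ± 56 without. Rps3a1, a 40S protein, had the largest difference, at 19.9 ± 1.2 with the transgene and 15.2 ± 7.5 in the controls (0.46 ± 0.21 SE, limma adjusted p = 0.521). Its control libraries lay at 10.0, 11.8 and 23.9. Without the third of them Rps3a1 was called higher in the transgenic group (0.81, limma adjusted p = 0.00953). Rpl14 was at 32.6 ± 0.93 against 36.3 ± 2.6 and Rps21, a 40S protein, at 15.5 ± 1.2 against 17.3 ± 0.30. For both, every transgenic library was below every control, as for 7.35% of all genes, and neither passed (limma adjusted p = 0.629 and 0.838).

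The 2 untreated wild-type groups on the high-fat diet, the controls of the transgene and those of AQ, are both labelled wild type on that diet. Of 63 members 1 was called between them, lower in HFD-WT (4.46% of all genes called). The median log2 fold change was -0.09 with 46 of 63 below 0, against 50.3% of all genes, and 11 had an unadjusted p under 0.05, against 20.2%. Within 1.5-fold lay 54 intervals (79% of all genes). Rplp1 was at 189 ± 8.6 in HFD-WT against 223 ± 22 in WT-HFD (-0.23 ± 0.081 SE, limma adjusted p = 0.113), while Rpl14 was at 36.3 ± 2.6 against 30.3 ± 2.1 (0.25 ± 0.079 SE, limma adjusted p = 0.0746). For both genes the groups did not overlap, as for 11.3% of all genes lower and 11.8% higher. Neither difference was called.

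Rpl22, a 60S protein, lay at 81.8 to 90.5 in the 6 libraries of the transgene experiment and at 91.8 to 128 in the other 12. Ranges were separated in this way for 0.519% of all genes lower and 0.631% higher, and the pattern was looked for after the values were seen. Against the 6 other high-fat libraries alone, Rpl7 (38.3 to 42.3 against 42.6 to 51.9) and Rplp1 (183 to 199 against 206 to 247) were separated too, with 3.97% of all genes lower and 4.44% higher. The samples of the transgene experiment and of the AQ experiment are not placed in batches by the labels, so experiment and batch cannot be told apart.

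Rps2, Rps18 and Rps3a1 stood apart in single libraries rather than groups. Rps2 was at 30.3 in HFD-WT replicate 1 and 29.0 in HFD-Nurr1-mTg replicate 1, and between 46.9 and 66.0 in the other 16 libraries. Rps18, a protein of the 40S head, was at 2.83 and 3.69 in the same libraries and at 4.76 to 9.40 elsewhere. Rps3a1 was low in HFD-WT replicates 1 and 2, at 10.0 and 11.8, and between 17.6 and 27.1 in the remaining libraries. The 3 genes lie on chromosomes 17, 17 and 3, and 6.43%, 1.96% and 18.1% of their windows were unique. Rps2 rested on 392 to 943 reads and Rps3a1 on 149 to 363, and Rps18 on 44 to 136. Fibroblast and matrix markers summed to 6320 in HFD-WT replicate 1 and 5190 in HFD-Nurr1-mTg replicate 1, against 2895 to 5515 in the other libraries, and their part in these values was not tested.

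**Figure D5:**
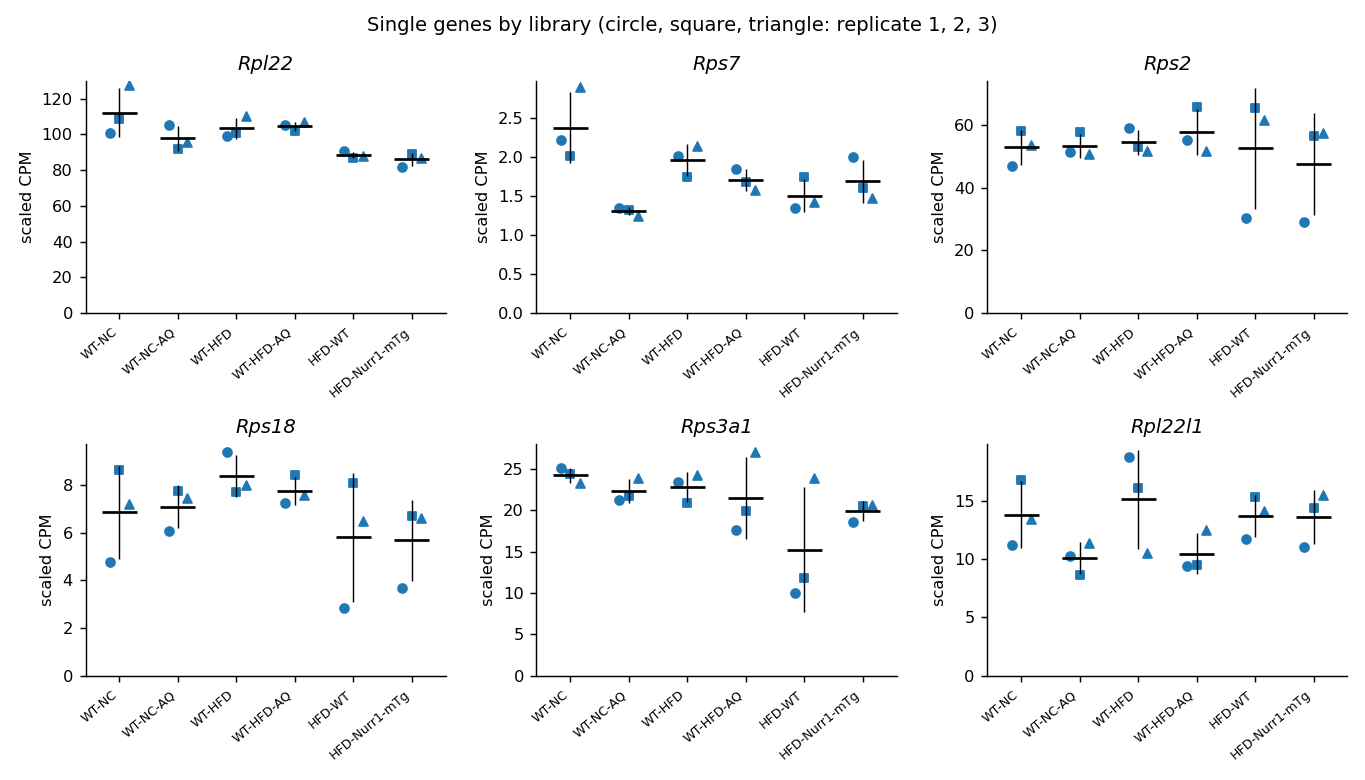
Scaled CPM on linear axes for Rpl22, Rps7, Rps2, Rps18, Rps3a1 and Rpl22l1 by group, with a circle, square and triangle for replicates 1, 2 and 3, and horizontal and vertical bars that show mean and SD. Rpl22 lies at 81.8 to 90.5 in HFD-WT and HFD-Nurr1-mTg, and Rps2 and Rps18 have their lowest values in replicate 1 of those groups.

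Members with further roles were not called either. Rps6, the substrate of the S6 kinases, lay between 1.26 and 2.93 over all libraries, and Rpl5, which binds 5S rRNA and MDM2, between 10.9 and 15.6. Rpsa lay between 0.370 and 1.74, from 4 to 25 reads, and Rps27a between 0.420 and 1.27. Rps19bp1 lay between 5.27 and 10.7. Rplp2, the remaining stalk protein, lay between 38.0 and 52.6.

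The machinery around the ribosome was described by lists. Rack1 (as Gnb2l1), a scaffold on the 40S head whose name the rule does not catch, was called in no comparison and lay at group means of 306 to 365. Of 65 ribosome assembly factors 0 were called for diet, AQ on either diet or the transgene. Under AQ the diet lowered 3 and raised 1 of them, in a comparison that called 10.6% of all genes. The 3 were Rrp12 (70.4 ± 4.1 to 54.0 ± 3.1), Bop1 (34.7 ± 0.31 to 26.5 ± 1.5) and Bysl (37.4 ± 0.55 to 30.5 ± 3.0), each needed for subunit maturation, and the gene raised was Nop10, of the H/ACA snoRNP. Of 14 genes of RNA polymerase I and its factors, 2 fell there, Tcof1 and Nolc1, beside the same 10.6%. Tcof1, a nucleolar factor of rRNA transcription, went from 47.2 ± 2.3 to 31.6 ± 2.1 (limma adjusted p = 0.00107). Some of these genes also differed between the 2 untreated wild-type high-fat groups, for which the labels give no difference in treatment. Tcof1 was at 42.0 ± 4.7 in HFD-WT and 31.1 ± 2.5 in WT-HFD (limma adjusted p = 0.0144). Bysl was higher in HFD-WT as well (38.8 ± 3.0 against 31.2 ± 0.50, limma adjusted p = 0.0497), and Nop10 was lower (28.1 ± 1.7 against 35.9 ± 1.5, limma adjusted p = 0.0197). With Ncl, a nucleolar protein that was lower in HFD-WT, 3 of the 65 assembly factors were called there, against 4.46% of all genes.

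Of 16 elongation factors and other pyrimidine-motif mRNAs, AQ on chow raised 1 (1.11% of all genes called), Naca, a subunit of the nascent polypeptide-associated complex, from 587 ± 19 to 911 ± 34 (0.63 ± 0.076 SE, limma adjusted p = 0.00171). The diet under AQ lowered 2 of the 16, in a comparison that called 10.6% of all genes. They were Naca, lowered to 451 ± 15, and Eef1a2, the muscle form of elongation factor 1A, from 1983 ± 96 to 1436 ± 106. Both also differed between the untreated wild-type high-fat groups, where 4.46% of all genes were called. Naca was at 829 ± 46 in HFD-WT and 513 ± 23 in WT-HFD (limma adjusted p = 0.000132). Eef1a2 was at 2158 ± 259 and 1630 ± 97 (limma adjusted p = 0.0318). Of 31 initiation factors, the transgene raised 1 (0.599% of all genes called), Eif4e, the cap-binding protein, from 46.3 ± 3.6 to 61.2 ± 2.4 (limma adjusted p = 0.0124). The AQ controls, WT-HFD, lay at 58.5 ± 3.2 for Eif4e, above HFD-WT (limma adjusted p = 0.0170). Under AQ the diet raised Eif4e and lowered Eif6 and Eif1, 3 of the 31 beside 10.6% of all genes. Of 25 genes of the mTORC1 and MYC axis, 3 rose (Deptor, Mxd4 and Larp4) and 2 fell (Larp1 and Tsc2) on the diet under AQ, again beside 10.6% of all genes, and 0 were called for diet, AQ on either diet or the transgene. Larp1 encodes the protein that binds pyrimidine-motif mRNAs. Deptor, an mTOR inhibitor, rose from 112 ± 19 to 174 ± 40 and Tsc2, which restrains mTORC1, fell from 140 ± 10 to 111 ± 4.0. Of 12 snoRNA host genes 0 were called in a comparison. Of 37 proteasome subunits 1 was, Psmc6, higher on the diet under AQ, beside the same 10.6% of all genes.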

How the data were processed

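RNA-seq of mouse skeletal muscle was analysed in 18 libraries, 6 groups of 3. The submitters' processing notes name TopHat2 2.0.12, edgeR and the build GRCm38 (mm10). The counter, annotation and strand setting were not given in the sources used here, so overlapping and antisense genes could not be separated. The deposited signal values were, tested on the files, whole read counts times 1 factor per library (100% whole within 1e-06), and are called scaled CPM; the library sums were 929993 to 1071538.

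Genes at 1 or more in at least 3 libraries were fitted with limma 3.58.1 in R 4.3.3 (all groups in 1 model, trended variance, 12 residual degrees of freedom, two-sided, Benjamini-Hochberg over all genes) on log2(value + 1). The fit was tested on simulated data. Alternatives were pseudocounts of 0.25 and 4, no filter, other scalings, only the groups compared, a replicate block, removal of the GC and length trend, edgeR 4.0.16 and DESeq2 1.42.0 on the recovered counts, and leaving out each library. P-values measure the spread between these samples. No 2 libraries of the same group agreed within sampling noise.

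Called members and the 2 largest differences in each direction among members of at least 10 scaled CPM were named, with members of a stated role. Reference transcripts were GENCODE M21 (GRCm38), to which all 64 members matched; windows of 50 bases were aligned with bwa 0.7.19 with up to 2 mismatches and no gaps, to annotated transcripts and not to the genome, at every base for members and every 50 bases for other genes. The members and gene lists were chosen with earlier results of these data known. Results of some genes are not reported here.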

Additional observations from a re-analysis of the deposited data

How the results depend on the processing

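The number of members called stayed at 0 under every alternative run for the high-fat diet, AQ on the high-fat diet and the interaction. For AQ on chow, the call of Rps7 was lost (0 members called) with plain CPM scaling, with only the groups compared, with the replicate block (limma adjusted p = 0.0626), with DESeq2, which gave Rps7 no adjusted p, and with the GC and length trend removed, and the count was 0 to 1 when single libraries were left out. For the diet under AQ, 3 were called with plain CPM scaling: Rpl36al, Rplp0 (0.24) and Rplp1 (0.23). For the transgene the count was 0 to 1 over left-out libraries. Between the 2 untreated wild-type high-fat groups, 2 were called with plain CPM scaling (Rplp1 among them), 0 with only the groups compared, 2 with the replicate block (Rps3a1 among them, limma adjusted p = 0.0473) and 1 to 2 over left-out libraries; without HFD-WT replicate 3, Rps3a1 was called at -1.001 (limma adjusted p = 0.00155). The replicate block changed no other count of called members. Replicate numbers did not pair the samples: of 45 pairs with the same number, 8 had a correlation of deviations over 0.1 (median 0.0469). Over left-out libraries Rps2 ranged from -0.0243 to 0.15 and Rpl18 from -0.0801 to 0.19 for AQ on the high-fat diet, turning without WT-HFD-AQ replicate 2. The members' medians moved by less than 1 SD between replicates under every alternative. The cause of these changes was not tested. Depth limits the low members, of which 18 averaged under 5 scaled CPM.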
